A study of Mus musculus with 6 samples.

Results

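Imprinted genes are genes of which the copy inherited from one parent is active and the other is silenced. A set of 37 of them was followed in total RNA libraries of sorted mouse haematopoietic stem cells. The members were taken by gene symbol from a fixed list: 36 matched a symbol in the deposited table of 55471 gene IDs, and Nespas was matched by its gene ID, under which the table names it Gnasas1. The cells, Lin- Kit+ Sca1+ with CD150 and without CD48 at the surface, were sorted from mice with the ETV6-RUNX1 genotype, which carry an inducible form of the fusion found in childhood B-cell precursor leukaemia. The uninduced group (n = 3 libraries) had the genotype but no doxycycline, and the induced group (n = 3 libraries) had the genotype and doxycycline in food for 2 weeks. The strain, age and sex of the mice and the promoter that drives the fusion are not given in the sources used here. No library with doxycycline and without the fusion was analysed here, so fusion and drug cannot be told apart. No label says that the libraries of a group came from separate animals, so p-values measure the spread between these libraries, which may be technical.

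Imprinted genes lie in clusters, each governed by a control region that carries DNA methylation on one parental copy, set in the germ line. The methylation is copied at each cell division by DNMT1 with UHRF1 and is protected by the zinc finger protein ZFP57 with TRIM28. Many imprinted genes act on growth: IGF2 is a fetal growth factor, and the IGF2 receptor removes it. Several, among them the Dlk1-Meg3 and H19-Igf2 clusters, Cdkn1c and Ndn, have been studied as regulators of stem cell quiescence. The values here are totals per gene, and the parental copies were not separated.

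Values are TPM, a length-corrected share of transcripts in each library scaled to a fixed total, so levels of different genes can be compared but the depth of each library is unknown. Of the 37 members, 8 were listed at 0 in all 6 libraries, 11 were above 0 in at least 1 library with a mean under 1 TPM, and 18 had a mean of at least 1 TPM and could be tested. The 8 at 0 were Dlk1, Rtl1, Meg3, Rian, Zim1, Magel2, Kcnq1 and Nespas. Most of the Dlk1-Meg3 cluster was therefore not seen, and its remaining member Mirg did not exceed 0.244 TPM in any library. Together the 37 members held 459 to 615 TPM in the uninduced libraries and 352 to 419 TPM in the induced libraries, or 0.0352% to 0.0615% of a library. The number of members at 1 TPM or more was 18 to 19 in uninduced and 15 to 18 in induced libraries.

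**Figure D1:**
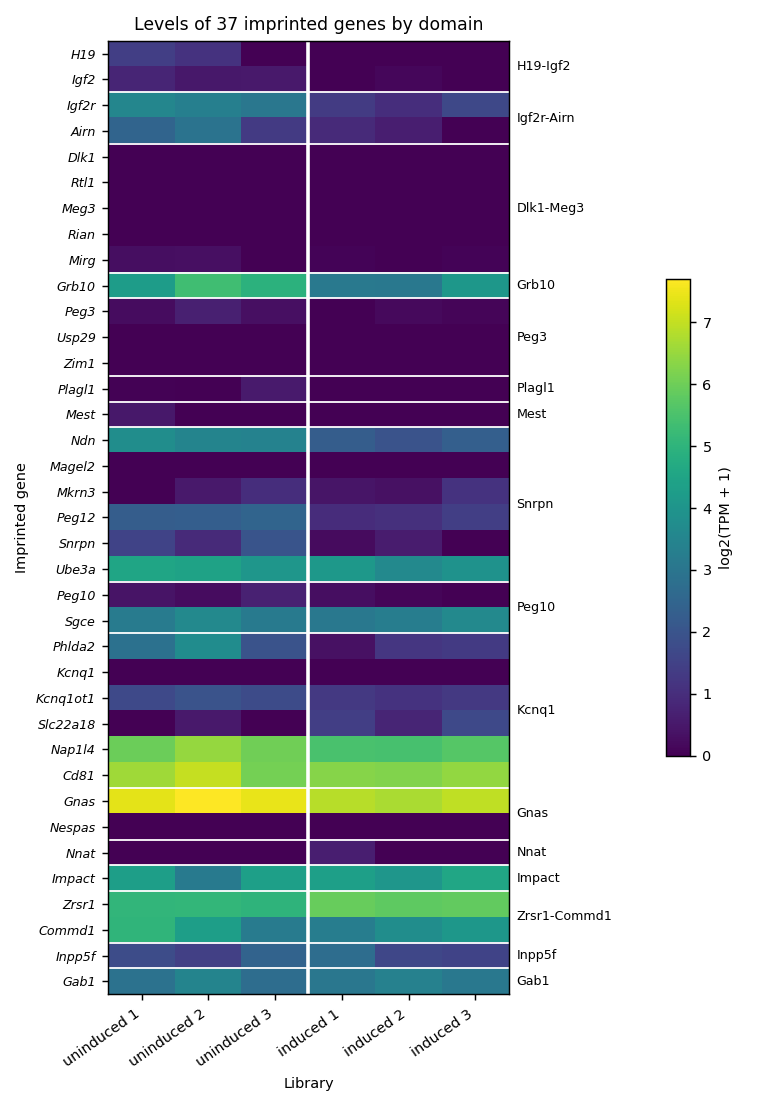
Levels of the 37 imprinted genes as log2(TPM + 1), with 1 row per gene, 1 column per library and genes grouped by imprinted domain. Gnas, Cd81, Nap1l4 and Zrsr1 are the brightest rows, the Dlk1-Meg3 rows are dark in all 6 libraries, and Igf2r, Airn, Ndn and Peg12 are darker in each induced library than in any uninduced one.

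The highest member was Gnas, which encodes the stimulatory G protein alpha subunit, with a mean of 148 TPM over the 6 libraries. It was followed by Cd81 at 88.1 TPM, Nap1l4 at 58.3 TPM and Zrsr1 at 44.5 TPM. Gnas lay above Cd81, and Cd81 above Nap1l4, in every library, although the ranges of Cd81 and Nap1l4 overlapped in uninduced cells. Zrsr1 and Nap1l4 exchanged places between the groups, with Zrsr1 below Nap1l4 in each uninduced library and above it in each induced library. Grb10, Impact, Ube3a and Commd1 followed with means of 16.1 to 19.6 TPM and overlapping ranges. The lowest genes tested were Kcnq1ot1 at 1.93 TPM and Snrpn at 1.08 TPM.

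Start-site sequences are shown for the pair of members whose change passed the test under each scaling tried, Zrsr1 and Igf2r, for the antisense gene Airn that starts inside Igf2r, and for Grb10, which had the most CG dinucleotides of any member window. Each is the 250 bases before a start site from the RefSeq promoter table (GRCm38.p6), written 5′ to 3′ on the strand of the gene, with CG, the dinucleotide that carries methylation, in capitals. Zrsr1 is chr11:22971755-22972004 on the plus strand, Igf2r is chr17:12769707-12769956 on the minus strand, Airn is chr17:12741061-12741310 on the plus strand, and Grb10 is chr11:12037421-12037670 on the minus strand, 1 of 2 starts in the table.
Zrsr1: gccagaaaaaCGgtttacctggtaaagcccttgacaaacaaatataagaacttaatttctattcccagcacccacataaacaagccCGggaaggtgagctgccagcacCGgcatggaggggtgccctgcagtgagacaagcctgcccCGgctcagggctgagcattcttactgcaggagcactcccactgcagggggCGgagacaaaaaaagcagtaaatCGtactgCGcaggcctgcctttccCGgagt
Igf2r: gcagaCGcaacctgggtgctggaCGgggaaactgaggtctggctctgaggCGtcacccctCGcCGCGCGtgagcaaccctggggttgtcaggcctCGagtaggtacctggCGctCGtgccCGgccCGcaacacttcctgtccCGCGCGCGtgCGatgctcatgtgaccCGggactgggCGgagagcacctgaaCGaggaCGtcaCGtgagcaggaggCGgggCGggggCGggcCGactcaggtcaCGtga
Airn: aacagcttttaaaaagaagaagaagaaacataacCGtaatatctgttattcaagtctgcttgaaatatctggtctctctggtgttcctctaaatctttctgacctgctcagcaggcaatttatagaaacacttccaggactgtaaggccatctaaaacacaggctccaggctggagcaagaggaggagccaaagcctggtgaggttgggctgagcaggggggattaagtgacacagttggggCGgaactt
Grb10: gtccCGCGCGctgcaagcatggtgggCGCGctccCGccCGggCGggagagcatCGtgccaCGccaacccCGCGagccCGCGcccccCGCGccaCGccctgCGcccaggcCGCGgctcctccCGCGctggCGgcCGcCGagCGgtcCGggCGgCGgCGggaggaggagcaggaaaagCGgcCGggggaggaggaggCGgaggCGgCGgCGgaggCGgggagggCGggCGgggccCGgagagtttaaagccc
The 250 bases held 8 CG for Zrsr1, 27 for Igf2r, 2 for Airn and 40 for Grb10. The table matched 29 of the 37 members, with 44 windows of 300 bases (250 before and 50 after a start). These windows held a median of 14.5 CG, from 0 in Rian to 45 in Grb10, against a median of 7 in the 32851 windows of all genes. The letters TGCCGC, the core recognised by ZFP57, were searched on both strands. They always contain a CG, of which the member windows had the higher median. They occurred in 10 of the 44 member windows, or 22.7%, and in 11.6% of all windows. The 10 windows came from 9 members, because overlapping windows of Mest were both counted. The part of CG content in this contrast was not tested. None of the 4 sequences printed held them, but the full window of the printed Grb10 start did, in the 50 bases after the start that are not printed.

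Group means are given ± SD over the 3 libraries of a group. Levels in induced and uninduced cells were compared on log2(TPM + 1) with limma across the 13470 genes whose mean reached 1 TPM. Of the 18 members tested, 1 rose and 5 fell at a limma adjusted p under 0.05. Among all tested genes, 1.29% rose and 10.2% fell. The 5 that fell were Igf2r, Phlda2, Grb10, Ndn and Gnas, and the one that rose was Zrsr1. The groups did not overlap for 1 member that was higher and 10 that were lower in induced cells, where 4.83% and 28.2% of all tested genes had such separation. Airn and Snrpn passed the minimum through their uninduced values alone, with induced means of 0.486 and 0.222 TPM, so a difference in these genes was favoured by the filter.

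The scale as deposited carries an offset between groups, as the median log2 difference of all tested genes was -0.35, against 0.0032 once median-of-ratios scaling was applied. The median over the 18 members was -0.60 on the deposited scale and -0.23 after that scaling, with 12 members below and 6 above the median of all genes. After median-of-ratios scaling only Zrsr1 (higher) and Igf2r (lower) of the 18 members passed, among 2.88% of all genes higher and 3.10% lower. Of the 6 calls on the deposited scale, Igf2r alone passed when any single library was left out. Without induced replicate 1 or without induced replicate 2, Igf2r was the only member called, and the count was 2 without uninduced replicate 2 and 3 without induced replicate 3.

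**Figure D2:**
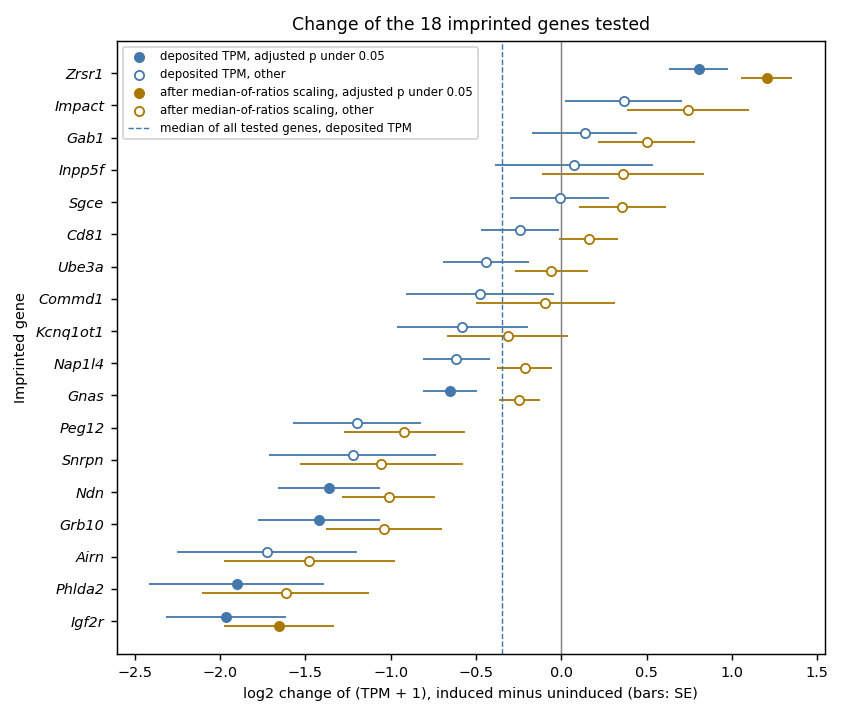
Log2 change of (TPM + 1), induced minus uninduced, for the 18 members tested, on the deposited scale (blue) and after median-of-ratios scaling (ochre), with bars for the SE and filled points for an adjusted p under 0.05. Zrsr1 lies farthest to the right and Igf2r farthest to the left on both scales, and each other member called on the deposited scale loses its call after scaling.

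Among the growth factor genes, the receptor gene was above 1 TPM in every library and the ligand gene in none. Igf2r (ENSMUSG00000023830, chr17:12682406-12769664, minus strand, GRCm38), the mannose 6-phosphate receptor that takes up IGF2 for breakdown, was at 10.6, 9.04 and 7.33 TPM in uninduced libraries and at 1.55, 1.02 and 2.17 TPM in induced libraries. Every induced library lay below every uninduced one. The mean fell from 8.997 ± 1.65 to 1.58 ± 0.574 TPM, 5.69-fold, with a log2 difference of -1.96 (SE 0.35, limma adjusted p 0.00817). After median-of-ratios scaling the log2 difference was -1.65 (limma adjusted p 0.0207), and across the 16 alternatives the adjusted p ranged from 0.00780 to 0.0400. The size of the Igf2r difference depended on the pseudocount, at -2.48 with 0.1 and -1.09 with 5.

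Airn (chr17:12741311-12860136, plus strand) is the long noncoding RNA that starts inside Igf2r, runs antisense to it and silences the paternal copy. It was at 4.59, 6.67 and 1.49 TPM in uninduced and at 0.903, 0.556 and 0 TPM in induced libraries. The groups did not overlap, but uninduced replicate 3 lay close to the induced values. The log2 difference was -1.72 (SE 0.53, limma adjusted p 0.0615), and it passed in 1 of 14 alternatives, without uninduced replicate 3 (-2.19, limma adjusted p 0.0332). The annotated exons of Airn and Igf2r share 0 bases, but Airn runs across Igf2r introns, and whether the deposited values used strand is not given in the sources used here. Slc22a3, an organic cation transporter gene of the same cluster, is no member but lies with them: it fell from 14.9 ± 3.11 to 0.737 ± 0.450 TPM, a log2 difference of -3.21 (SE 0.36, limma adjusted p 0.00133). Its neighbour Slc22a2 was listed at 0 in all 6 libraries. Like Airn, Slc22a3 reached the minimum through its uninduced values alone, so the filter favoured a fall.

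Igf2 itself, the ligand, stayed under 1 TPM, at 0.729, 0.408 and 0.435 TPM in uninduced and at 0, 0.0871 and 0 TPM in induced libraries. H19, the noncoding RNA that shares its control region, was at 1.70, 1.20 and 0.0152 TPM in uninduced libraries and was listed at 0 in the 3 induced ones. Neither reached the minimum for testing, and with unknown depth these low values carry no interval. H19 was thus seen mainly in uninduced replicates 1 and 2.

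The Igf axis list held 39 other genes of insulin-like growth factor signalling, of which 29 could be tested. Of these 1 fell and 28 did not pass on the deposited scale, where 10.2% of all tested genes fell. After median-of-ratios scaling 1 fell and 3 rose, beside 3.10% and 2.88% of all tested genes. The gene that fell in both was Igf2bp2, which encodes an RNA-binding protein of the Igf2 messenger, at 6.42 ± 0.559 and 0.304 ± 0.389 TPM, with a log2 difference of -2.55 (limma adjusted p 0.00517). Its uninduced values alone carried it past the minimum, which favoured a fall. Igf1r, the signalling receptor for IGF2, was at 30.0 ± 5.75 and 18.2 ± 3.39 TPM. Its log2 difference was -0.69 (95% interval -1.23 to -0.16, limma adjusted p 0.0926), and it did not pass under any of its 16 alternatives. The list's median log2 difference was -0.30, beside -0.35 for all tested genes.

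Zrsr1 (ENSMUSG00000044068, chr11:22972005-22976496, plus strand) was the one member that rose. It is a paternally expressed, retrotransposed relative of the splicing factor gene Zrsr2. It was at 32.5, 33.0 and 30.8 TPM in uninduced libraries and at 59.2, 54.6 and 56.9 TPM in induced libraries. The replicates of each group lay close together and the groups were far apart. The mean rose from 32.1 ± 1.16 to 56.9 ± 2.31 TPM, 1.77-fold, with a log2 difference of 0.81 (SE 0.17, limma adjusted p 0.0183). After median-of-ratios scaling the log2 difference was 1.20 (limma adjusted p 0.00393). The call was lost without induced replicate 1 (limma adjusted p 0.0710), without induced replicate 2 (0.0612) and without induced replicate 3 (0.0565), and without the variance trend (0.0681), while the log2 difference stayed between 0.78 and 0.83 when any library was left out. It was lost too with a replicate block, a fit that adds the replicate number as a factor (limma adjusted p 0.0618).

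Zrsr1 lies inside Commd1, on the opposite strand, and 412 of its 4492 exon bases overlap exons of Commd1. Commd1, which encodes a protein of copper handling and NF-kB control, was at 31.9, 19.1 and 8.13 TPM in uninduced and at 8.68, 12.7 and 15.9 TPM in induced libraries. These overlapped widely, with a log2 difference of -0.48 (SE 0.43, 95% interval -1.45 to 0.49, limma adjusted p 0.512). The difference was -0.050 without uninduced replicate 1 and -0.97 without uninduced replicate 3. Zrsr2, named because its sequence resembles that of Zrsr1, was at 20.1 ± 1.33 and 24.1 ± 4.60 TPM, a log2 difference of 0.23 (limma adjusted p 0.543). Reads that fit both Zrsr genes could have been split between them.

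**Figure D3:**
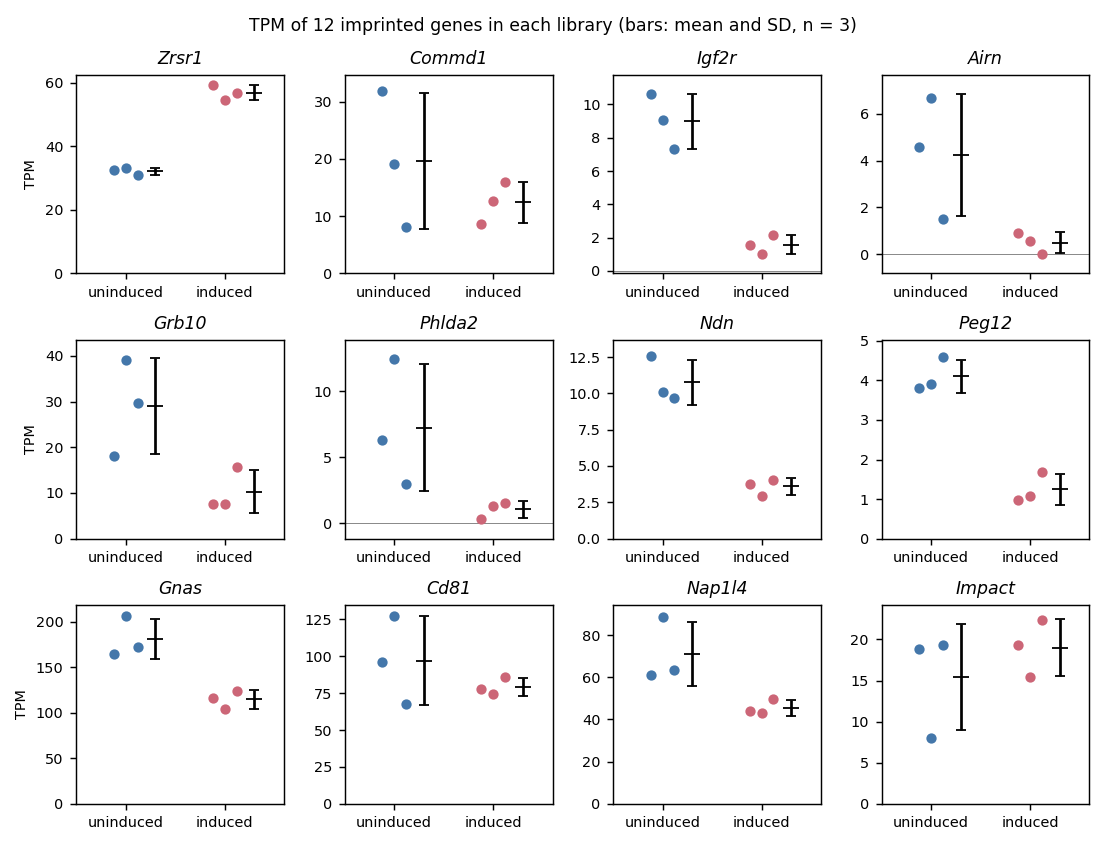
TPM of 12 imprinted genes in each library, uninduced in blue and induced in red, with the mean and SD of each group (n = 3) beside the points. Zrsr1 is the only panel with all induced points above all uninduced points, Igf2r, Ndn and Peg12 have induced points well below the uninduced ones, and Commd1, Cd81 and Impact overlap.

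Among the adaptor and signalling genes, Grb10, Gnas and Phlda2 fell on the deposited scale, where 10.2% of all tested genes fell, and none of these passed after median-of-ratios scaling. Grb10 (ENSMUSG00000020176, chr11:11930508-12038683, minus strand), an adaptor that binds and restrains the insulin and IGF1 receptors, was at 18.2, 39.1 and 29.7 TPM in uninduced and at 7.56, 7.53 and 15.8 TPM in induced libraries. It fell 2.82-fold, with a log2 difference of -1.42 (SE 0.36, limma adjusted p 0.0323). The highest induced value lay just below the lowest uninduced value. The call ended with median-of-ratios scaling (-1.04, limma adjusted p 0.114) and without induced replicate 1 (adjusted p 0.102), induced replicate 2 (0.117), uninduced replicate 2 (0.106) or uninduced replicate 3 (0.0760). It also ended with no minimum level (0.119) and without the variance trend (0.0760).

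Gnas (ENSMUSG00000027523, chr2:174284320-174346744, plus strand) was at 165, 206 and 173 TPM in uninduced and at 117, 104 and 124 TPM in induced libraries. It fell from 181 ± 21.9 to 115 ± 10.3 TPM, with a log2 difference of -0.65 (SE 0.16, limma adjusted p 0.0284). This lies 0.31 below the median of all genes, and after median-of-ratios scaling the change was -0.25 and the call was lost (limma adjusted p 0.284). It was also lost without induced replicate 1 (0.0821), induced replicate 2 (0.110), induced replicate 3 (0.0565) or uninduced replicate 2 (0.0776), with no minimum level (0.0545) and without the variance trend (0.128). The replicate block ended it too (0.0827). Gnas and its antisense RNA Nespas share 988 exon bases, and Nespas was listed at 0 throughout. The table gives 1 value for Gnas, so the imprinted forms from its other promoters were not separated from the main one.

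Phlda2 (ENSMUSG00000010760, chr7:143501545-143503150, minus strand), a small pleckstrin-homology protein that limits placental growth, was at 6.29, 12.4 and 2.95 TPM in uninduced and at 0.279, 1.32 and 1.49 TPM in induced libraries. The groups did not overlap, although the uninduced values were far apart from each other. It fell 7.001-fold, with a log2 difference of -1.90 (SE 0.51, limma adjusted p 0.0416). After median-of-ratios scaling this was -1.62 (adjusted p 0.0917). The call was also lost with a pseudocount of 5 (adjusted p 0.0558), with no minimum level (0.148), without the variance trend (0.0631) and without any single library other than uninduced replicate 3 (0.0692 to 0.133). The replicate block ended it too (0.0562).

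Impact, which restrains the amino acid sensor GCN2, was at 18.9, 7.97 and 19.4 TPM in uninduced and at 19.3, 15.4 and 22.3 TPM in induced libraries, with a log2 difference of 0.36 (95% interval -0.40 to 1.13, limma adjusted p 0.523). Gab1, a docking protein of growth factor receptors, was at 6.39, 10.1 and 5.71 TPM in uninduced and at 7.33, 9.32 and 7.51 TPM in induced libraries, with a log2 difference of 0.14 (95% interval -0.55 to 0.83, limma adjusted p 0.809). Both overlapped between the groups, and the intervals leave room for changes in either direction. Inpp5f, a phosphoinositide phosphatase gene with an imprinted isoform, was at 2.46, 1.78 and 4.43 TPM in uninduced and at 5.79, 2.11 and 1.89 TPM in induced libraries, with a log2 difference of 0.08 (95% interval -0.96 to 1.11, limma adjusted p 0.935). Its highest value was a single induced library.

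In the Snrpn cluster, the region of the Prader-Willi and Angelman syndromes, 4 of 6 members could be tested and all 4 lay below the median of all genes. Ndn (ENSMUSG00000033585, chr7:62346569-62350262, plus strand), which encodes necdin, a MAGE-family protein that restrains the cell cycle, was at 12.5, 10.1 and 9.68 TPM in uninduced and at 3.79, 2.92 and 4.05 TPM in induced libraries. It fell from 10.8 ± 1.54 to 3.59 ± 0.588 TPM, with a log2 difference of -1.36 (SE 0.30, limma adjusted p 0.0191). The groups were well apart, but the call ended with median-of-ratios scaling (-1.01, limma adjusted p 0.0662). It was also lost without induced replicate 1 (0.0525), induced replicate 2 (0.0719), uninduced replicate 1 (0.0704) or uninduced replicate 2 (0.0505).

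Peg12, a Frat-family gene whose products bind the kinase GSK3, was at 3.81, 3.92 and 4.58 TPM in uninduced and at 0.969, 1.07 and 1.69 TPM in induced libraries. The groups did not overlap, but with a log2 difference of -1.20 (SE 0.37) the limma adjusted p was 0.0661. Snrpn, a spliceosomal Sm protein gene, was at 1.94, 0.906 and 2.98 TPM in uninduced and at 0.179, 0.487 and 0 TPM in induced libraries (limma adjusted p 0.136). Both were lower in each induced library, and neither passed. Ube3a, a ubiquitin ligase gene that is imprinted in neurons, was at 21.9, 20.5 and 15.4 TPM in uninduced and at 16.1, 11.4 and 14.1 TPM in induced libraries, a log2 difference of -0.44 (95% interval -1.003 to 0.12, limma adjusted p 0.285). Its groups overlapped. Mkrn3, a makorin gene between Ndn and Peg12, stayed at 0.0189 to 1.16 TPM with overlapping groups. Of the cluster, Ndn alone passed the test.

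The Kcnq1 cluster on chromosome 7, the region of Beckwith-Wiedemann syndrome, held tested members with and without overlap between the groups. Besides Phlda2, Kcnq1ot1, the antisense noncoding RNA that silences the paternal copies, was at 2.21, 2.93 and 2.41 TPM in uninduced and at 1.43, 1.19 and 1.42 TPM in induced libraries. Its groups did not overlap, but the log2 difference of -0.58 did not pass (SE 0.38, limma adjusted p 0.361). Kcnq1, the channel gene in which it starts, was listed at 0 throughout. Nap1l4, a nucleosome assembly gene, was at 61.1, 88.8 and 63.5 TPM in uninduced and at 44.0, 42.9 and 49.7 TPM in induced libraries, a log2 difference of -0.62 (SE 0.20, limma adjusted p 0.0736). Cd81, a tetraspanin gene, was at 96.0, 128 and 67.4 TPM in uninduced and at 77.9, 74.1 and 85.7 TPM in induced libraries, which overlapped (log2 difference -0.24, limma adjusted p 0.522). The sign for Cd81 flipped to 0.16 after median-of-ratios scaling.

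Slc22a18, a transporter gene of this cluster, was higher in each induced library, with 0, 0.436 and 0 TPM in uninduced and 1.71, 0.751 and 2.23 TPM in induced libraries. Its mean was under 1 TPM, so it was not tested. Of other genes of the cluster, Cdkn1c, the cell cycle inhibitor p57, was at 32.0 ± 6.83 and 23.2 ± 11.9 TPM, a log2 difference of -0.55 (95% interval -1.32 to 0.23, limma adjusted p 0.342). Its groups overlapped, and the difference was -0.91 without induced replicate 1 and -0.18 without induced replicate 2. Tspan32, a tetraspanin gene, fell from 36.6 ± 11.1 to 16.2 ± 5.29 TPM, a log2 difference of -1.14 (limma adjusted p 0.0349), a call that ended with median-of-ratios scaling (adjusted p 0.135), with no minimum level (0.108) or no variance trend (0.0833), and without any single library other than induced replicate 3. The replicate block ended the Tspan32 call too (adjusted p 0.0545). Cars, a cysteinyl-tRNA synthetase gene, fell from 18.2 ± 6.24 to 5.16 ± 1.57 TPM, a log2 difference of -1.62 (SE 0.32, limma adjusted p 0.0131), and passed with median-of-ratios scaling too (-1.26, adjusted p 0.0375), but not without induced replicate 2 (0.0566) or with no minimum level (0.0535).

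In the remaining clusters, levels were low or the groups overlapped. Sgce, the sarcoglycan gene that shares a control region with Peg10, was at 8.28, 11.4 and 7.99 TPM in uninduced and at 7.46, 8.67 and 11.4 TPM in induced libraries, a log2 difference of -0.01 (95% interval -0.65 to 0.64, limma adjusted p 0.988) that became 0.36 after median-of-ratios scaling. Peg10, derived from a retrotransposon, stayed at 0 to 0.642 TPM. Peg3, a zinc finger gene and the centre of its own cluster, was at 0.182, 0.608 and 0.256 TPM in uninduced and at 0, 0.154 and 0.0811 TPM in induced libraries. Mest, a hydrolase gene, was seen in uninduced replicate 1 alone at 0.399 TPM, and Nnat, a brain proteolipid gene, in induced replicate 1 alone at 0.581 TPM. Plagl1, a zinc finger gene, reached 0.469 TPM in 1 uninduced library, and Usp29 reached 0.0062 TPM in 1 induced library. Of 52 small RNA genes in imprinted clusters, 49 were listed at 0 in all libraries and 0 reached a mean of 1 TPM. The highest was Mir667, at 5.33 TPM in uninduced replicate 3 alone.

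By the copy usually expressed, 9 members are maternally expressed, and the 2 that could be tested, Igf2r and Phlda2, both fell on the deposited scale, where 10.2% of all tested genes fell. After median-of-ratios scaling 1 of them, Igf2r, passed. Of the 20 paternally expressed members 8 could be tested, of which Zrsr1 rose and Ndn fell, where 1.29% of all tested genes rose. Of 6 members imprinted in certain tissues only, all 6 were tested and Gnas fell, and of 2 members imprinted by promoter or isoform Grb10 fell. After median-of-ratios scaling Zrsr1 alone of the tested members of these 3 classes passed. With that scaling 2.88% of all tested genes were called higher and 3.10% lower. Parental expression is background knowledge and was not measured.

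A list of 54 further imprinted genes, 53 of them in the table, gave 27 that could be tested, of which 4 fell and 23 did not pass, beside 10.2% of all tested genes that fell. Those that fell were Slc22a3, Cars, Mcts2 and Tspan32. The median log2 difference over the 27 tested genes of the list was -0.32, beside -0.35 for all genes. After median-of-ratios scaling 2 fell (Slc22a3 and Cars) and 1 rose, beside 3.10% and 2.88% of all tested genes. The one that rose was Blcap, whose intron holds Nnat. Blcap was at 6.60 ± 2.60 and 14.8 ± 2.49 TPM, with a log2 difference of 1.10 and a limma adjusted p of 0.0552 on the deposited scale, and 1.46 with 0.0246 after scaling. Mcts2, a retrotransposed gene inside H13, fell from 9.71 ± 3.26 to 2.94 ± 1.22 TPM, a log2 difference of -1.44 (limma adjusted p 0.0399). The Mcts2 call ended with median-of-ratios scaling (adjusted p 0.152), with no minimum level (0.117) or no variance trend (0.0585), and without any single library other than uninduced replicate 2. The replicate block ended it too (adjusted p 0.0649). Without induced replicate 2, Slc22a3 alone of the list was called.

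Several genes that set, copy or protect methylation at imprinted loci fell in induced cells. Of 34 regulators 31 could be tested, of which 8 fell and 23 did not pass, beside 10.2% of all tested genes that fell. Those that fell were Uhrf1, Dnmt1, Zfp57, Ezh2, Dnmt3b, Cbx5, Trim28 and Mbd3. After median-of-ratios scaling 6 fell, without Zfp57 and Mbd3, beside 3.10% of all tested genes. Uhrf1 fell from 53.6 ± 4.30 to 5.49 ± 1.14 TPM (log2 difference -3.09, limma adjusted p 0.000197), and Dnmt1 from 88.6 ± 12.7 to 23.0 ± 0.484 TPM (-1.89, limma adjusted p 0.000658). Both keep methylation through cell division. Trim28 fell from 118 ± 20.2 to 57.1 ± 8.86 TPM (-1.04, limma adjusted p 0.0100, and 0.0576 without the variance trend), and Zfp57 from 5.40 ± 1.87 to 0.897 ± 0.287 TPM (-1.72, limma adjusted p 0.0256). Zfp57 had an induced mean under 1 TPM and passed the minimum through its uninduced values, which favoured a fall. Its call ended with median-of-ratios scaling (adjusted p 0.0732), with no minimum level (0.0796), with the replicate block (0.0562), and without any single library other than uninduced replicate 1. Zfp445, which also guards imprints, did not pass (-0.46, limma adjusted p 0.322), nor did Ctcf, the insulator protein of the H19-Igf2 control region (-0.55, limma adjusted p 0.127).

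**Figure D4:**
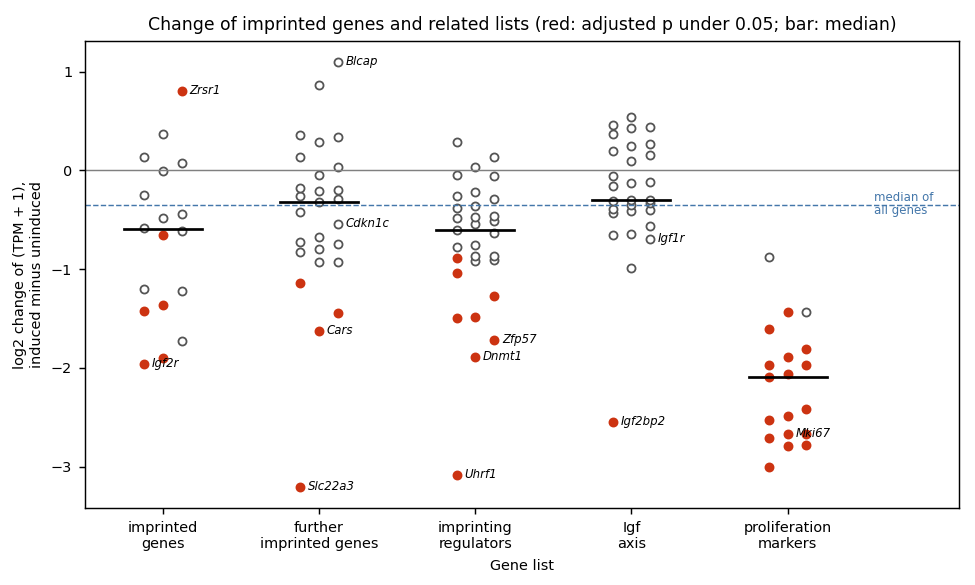
Log2 change of (TPM + 1), induced minus uninduced, for each tested gene of the imprinted set, the further imprinted genes, the imprinting regulators, the Igf axis and proliferation markers, with red for an adjusted p under 0.05, a black bar for the list's median and a dashed line for the median of all genes. The imprinted genes spread from Igf2r at -1.96 to Zrsr1 at 0.81, while 17 of the 19 proliferation markers lie among the red points below the line.

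Markers of cell state and of other cell types moved between the groups as well. On the deposited scale 1.29% of all tested genes rose and 10.2% fell, and after median-of-ratios scaling 2.88% rose and 3.10% fell. Of 19 proliferation markers tested, 17 fell and 2 did not pass, and their summed level was 751 to 908 TPM in uninduced and 170 to 224 TPM in induced libraries. Of 11 erythroid markers tested 7 rose and 1 fell, with sums of 402 to 483 and 656 to 758 TPM. All 13 stem cell markers reached a mean of 1 TPM, with sums of 690 to 909 and 784 to 869 TPM, and 4 of them rose and 3 fell. Among the lymphoid markers, Il7r, Dntt, Cd79a, Ebf1, Pax5, Cd3e and Cd3g were listed at 0 throughout, and 1 of the 2 tested fell. That gene and 3 of the proliferation markers passed the minimum through their uninduced values, as did 1 erythroid and 2 stromal or endothelial markers. Ppbp of the megakaryocyte markers and 2 erythroid markers passed it through their induced values. The filter favoured a change in each of these genes. The stromal and endothelial markers had 3 of 14 at 0, Col1a1, Lepr and Lum, and limma called 0 of the 6 tested, of which 1 was higher at an unadjusted p under 0.05. With a minimum mean of 5 TPM, 1 of 3 was called, higher in induced cells. Of 7 megakaryocyte markers 2 rose and 1 fell, and of 7 myeloid markers 1 rose. After median-of-ratios scaling 16 proliferation markers fell, 7 erythroid markers rose, 5 stem cell markers rose and 1 fell, 2 megakaryocyte markers rose, 3 myeloid markers rose, 1 lymphoid marker fell and 1 stromal or endothelial marker rose. The part of these shifts in the changes of the imprinted genes was not tested, and fewer cells with a transcript cannot be told apart from less RNA per cell.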

How the data were processed

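Transcript abundance was measured by stranded total RNA sequencing in 6 libraries, 3 uninduced and 3 induced, grouped by their titles. The authors deposited TPM per gene in a single table. The submitters' processing notes name bcl2fastq, HISAT2, StringTie, DESeq2 and the GRCm38 build. Program versions, the annotation release and the strand setting are not given in the sources used here, and TPM keeps no depth, so no counting interval is given. Of its 60496 rows, 5025 repeat an earlier gene ID, and such rows were added up.

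Genes whose mean reached 1 TPM were compared on log2(TPM + 1) by limma 3.58.1 (R 4.3.3), two-sided and with a variance trend, using Benjamini-Hochberg adjustment over all 13470 tested genes and a threshold of 0.05. Changes are induced minus uninduced, and this scale understates changes of low genes. The step was tested on simulated data. Gene positions are from GENCODE M21 (GRCm38) and start-site windows from RefSeq (GRCm38.p6).

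The members and lists were chosen with earlier results of these data known. Members past the threshold on either scale are given in full. Of the other lists, at most the 8 called genes with the largest change are named, with Cdkn1c, Igf1r, Dnmt1, Uhrf1, Trim28, Zfp57, Zfp445 and Ctcf. Other genes, such as Blcap, Slc22a2, Igfbp4, Pik3cd, Pik3r1, Zrsr2, Mcts1, Peg13, Mir667 and the cell type markers, lie outside this rule and were named after their values were seen. Alternatives were pseudocounts of 0.1 and 5, no filter or one at 5 TPM, rescaling to nuclear protein-coding genes, quantile normalization, median-of-ratios scaling, array weights, a fit without the variance trend, a replicate block, the highest row per gene ID (for the count of members), and leaving out each library.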

Additional observations from a re-analysis of the deposited data

How the results depend on the processing

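Of all genes, 1549 were called. The count was 806 (388 higher, 418 lower) after median-of-ratios scaling, 814 (374 and 440) after quantile normalization, 886 (435 and 451) after rescaling to nuclear protein-coding genes, 752 without the filter, 767 without the variance trend and 902 with the replicate block, and with 1 library removed it ran from 611 to 1276. The 6 imprinted members called became 2 after each of those 3 rescalings (Igf2r and Zrsr1), 3 without the filter (Igf2r, Ndn and Zrsr1), 3 without the trend (Igf2r, Ndn and Peg12), 3 with the replicate block (Igf2r, Grb10 and Ndn, with Zrsr1 at an adjusted p of 0.0618) and from 1 to 6 with 1 library removed. The 4 further imprinted genes became 1 without the filter, 2 without the trend, 2 with the block and from 1 to 3 with 1 library removed. The Igf axis count of 1 became 0 at a mean of at least 5 TPM, where Igf2bp2 is removed and limma gave an unadjusted p under 0.05 for 3 of 26 genes, and 4 after each of the 3 rescalings (Igf2bp2, Igfbp4, Pik3cd and Pik3r1). With 1 library removed it stayed at 1, and the 8 regulators gave 6 to 8. The regulators gave 6 without the filter, without the trend, with the block and after each of the 3 rescalings.

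The sign for Sgce turned to 0.0054 with array weights, 0.36 after median-of-ratios scaling, 0.35 after quantile normalization and 0.42 after rescaling to nuclear protein-coding genes, and with 1 library removed spanned -0.16 to 0.14. Cd81 turned to 0.16, 0.15 and 0.19 in those 3 rescalings. With 1 library removed, Impact ranged from -0.024 to 0.57, Inpp5f from -0.32 to 0.35 and Gab1 from -0.0068 to 0.36. The cause of these moves was not tested. Without a library, an arm of 2 shares its spread with the other. Same-numbered libraries share only a number: their deviations from the group means correlated at 0.0215, -0.0152 and 0.0172, and 1 of the 3 pairs was each other's best match. With unknown depth, levels near 0 TPM cannot be told from absence.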

Other observations

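Mcts2, like Zrsr1, is an imprinted copy made by retrotransposition, and its parent gene was looked up after its values were seen. The parent, Mcts1, was at 13.2 ± 2.90 TPM in uninduced and 13.4 ± 3.05 TPM in induced cells (SD, n = 3 each), a log2 difference of 0.02 (95% interval -0.60 to 0.64, limma adjusted p 0.968), beside -1.44 for Mcts2. The difference between copy and parent was not tested, for this pair or for Zrsr1 and Zrsr2, and reads could be split between near-identical copies. Peg13, a noncoding RNA inside Trappc9, was at 30.7, 26.9 and 22.4 TPM in uninduced and at 32.9, 32.0 and 32.7 TPM in induced libraries, so that each induced library lay above each uninduced one. With a log2 difference of 0.29 on the scale as deposited (limma adjusted p 0.393), it did not pass there or after median-of-ratios scaling (0.68, adjusted p 0.0548).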
